A study of Gasterosteus aculeatus with 62 samples.

Results

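A set of 50 genes stood out in the stickleback brain for a level in the telencephalon many times that in the diencephalon. The set was drawn from 20805 gene models with Ensembl identifiers, among 22295 models in all. Levels are in CPM, the counts of a gene per 1 M counts in gene models of the library. A gene was a member where its median over the 31 telencephalon libraries was at least 5 CPM and where that median was at least 8 times the diencephalon median, with 0.1 CPM added to both. The region medians chose the members, so the difference between regions is given as a description, with no test. No identifier could be paired with a gene name, so that members are known by identifier alone and no role is given for them.

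The telencephalon is the front part of the fish forebrain. It receives smell from the olfactory bulbs, and its pallium and subpallium take part in learning, in spatial memory and in social behaviour. The diencephalon lies directly behind it and holds the thalamus, a relay for the senses, and the hypothalamus, which controls the pituitary gland. The preoptic area lies where these regions adjoin.

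The libraries came from 31 nesting males of the threespined stickleback (Gasterosteus aculeatus), with the telencephalon and the diencephalon of every male sequenced separately. Control males (n = 7) were shown empty cages, and courtship males (n = 8) a caged live female with ripe eggs. Predator males (n = 8) were shown a trout model with odor cues, and tradeoff males (n = 8) a live female and a trout model. Odor cues are named in the labels for the predator males only, so the trout stimulus may differ between these treatments. The brains were taken 1 hour after the trial, and no strain or age is given in the labels used here. Each library is 1 region of 1 male, so that the spread within a treatment is that between animals.

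The telencephalon libraries held 26.2 to 51.1 M counts in gene models and the diencephalon libraries 26.6 to 47.7 M, so that 1 CPM rested on at least 26 reads. The telencephalon library of predator male 42 stood apart and went against its label for most members, as given below. Values over 30 telencephalon libraries leave it out, and values over 31 include it. The label of the telencephalon could not be checked against named marker genes.

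The members ranged widely in level. Their telencephalon medians ran from 5.04 to 1453 CPM, with 15 members above 100 CPM and 12 below 10 CPM. The median over the members was 42.9 CPM in the telencephalon and 2.64 CPM in the diencephalon. CPM is not divided by gene length, so the order of the members by level is not an order of molecules. Together the members held 0.742% of the counts in the median telencephalon library and 0.0527% in the median diencephalon library. In whole-region tissue, fewer cells of a type and less RNA per cell cannot be told apart.

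ENSGACG00000016538 had the highest level, with 692 CPM in the lowest, 1460 in the median and 1857 in the highest of 30 telencephalon libraries. Its 31 diencephalon libraries held 59.0 to 114 CPM, with a median of 95.5. All 30 telencephalon libraries lay above every diencephalon library. ENSGACG00000016537 followed, at 386 to 1072 CPM (median 835) against 66.7 to 119 CPM (median 91.7), and ENSGACG00000009117 had 286 to 776 CPM (median 671) against 46.1 to 73.2 CPM (median 59.7). These genes were thus abundant in the telencephalon and plainly detected in the diencephalon. The fourth by level, ENSGACG00000003836, had 593 CPM against 19.3 CPM by the medians of 31 libraries, and behaved differently from the others.

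The ratio of the medians was 12.7 at the middle of the list. It lay between 8 and 16 for 35 members, between 16 and 32 for 7 and above 32 for 8. The largest belonged to ENSGACG00000005648, at 92.4. It had 101 to 295 CPM (median 221) in 30 telencephalon libraries and 0.306 to 8.44 CPM (median 2.27) in the diencephalon. ENSGACG00000009609 had 83.6 to 259 CPM (median 147) against 0.978 to 10.3 CPM (median 1.85), and ENSGACG00000003160 had 86.0 to 269 CPM (median 206) against 1.61 to 11.1 CPM (median 3.27). In these genes the lowest telencephalon library lay more than 7 times above the highest diencephalon library. ENSGACG00000017663 and ENSGACG00000006547 had a diencephalon median of 0, so their ratios of 85.2 and 57.5 rest on the constant of 0.1 CPM. ENSGACG00000017663 had no read in 21 of 31 diencephalon libraries and at most 0.472 CPM, against 4.05 to 14.2 CPM in 30 telencephalon libraries.

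Just inside the limit of 8 were ENSGACG00000000626 at 8.02, ENSGACG00000011239 at 8.09, ENSGACG00000008795 at 8.12, ENSGACG00000016240 at 8.14 and ENSGACG00000018854 at 8.18. Just outside were ENSGACG00000011189 at 7.89, ENSGACG00000004931 at 7.87, ENSGACG00000011629 at 7.72, ENSGACG00000013159 at 7.60 and ENSGACG00000005612 at 7.44. The levels on both sides were alike in kind, from 5.25 to 313 CPM inside and from 28.5 to 387 CPM outside, so the limit marks no gap.

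**Figure D1:**
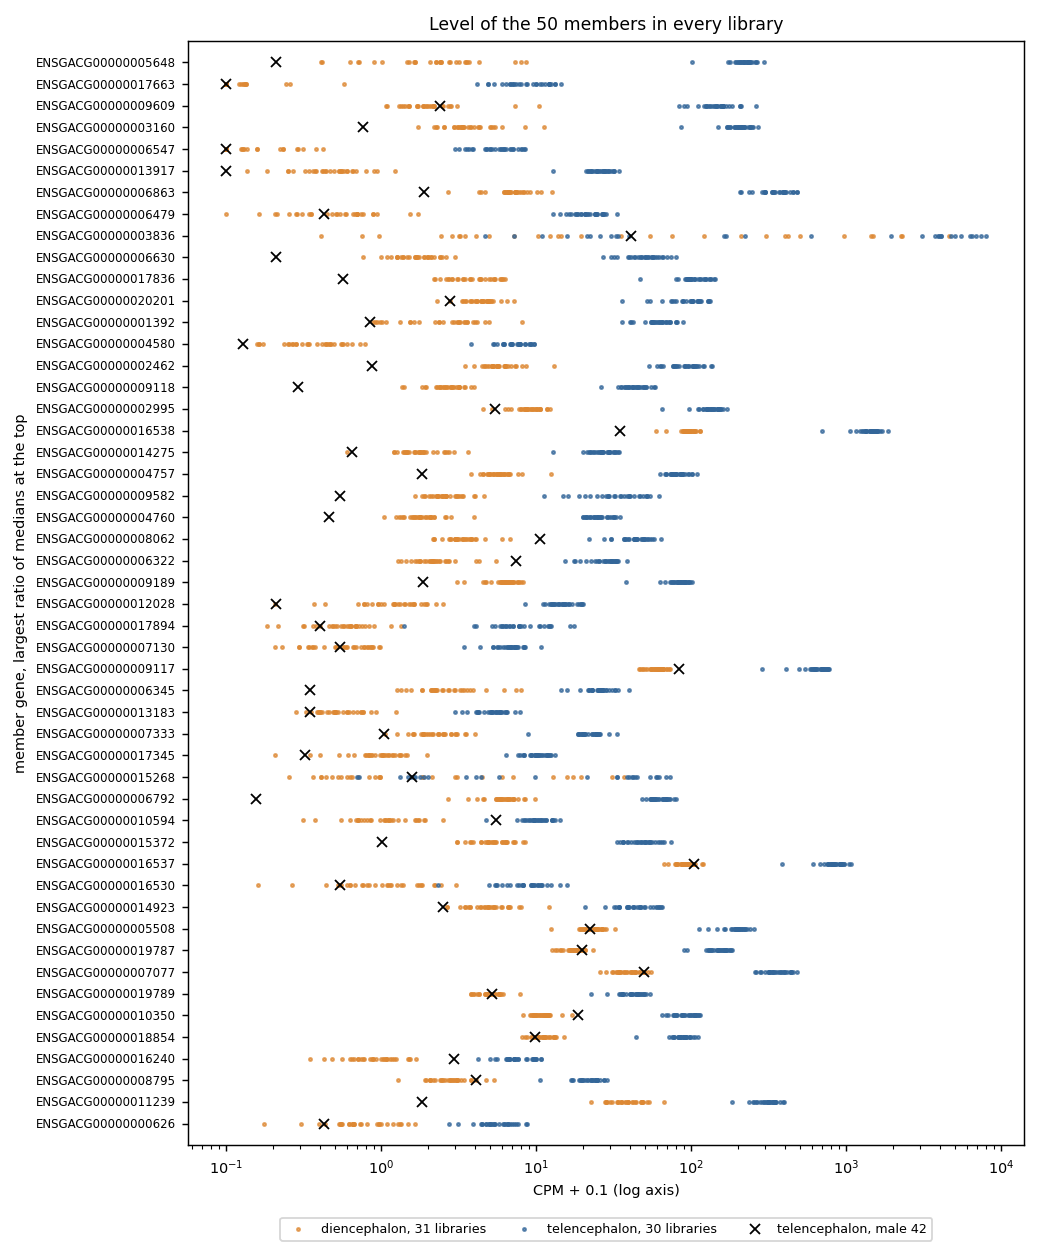
Level of each of the 50 members in every library, as CPM + 0.1 on a log axis, with the members ordered by the ratio of region medians. Blue points are 30 telencephalon libraries, orange points 31 diencephalon libraries and crosses the telencephalon library of male 42. Blue and orange are apart for 47 members and mixed for ENSGACG00000003836, ENSGACG00000015268 and, by a single library, ENSGACG00000016530.

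For 47 of the 50 members, all 30 telencephalon libraries lay above all 31 diencephalon libraries. The same held for 6.31% of the 12958 Ensembl genes with a telencephalon median of at least 5 CPM, and nothing is read from this count because the rule used the same contrast. Within males, 17 members were higher in the telencephalon in all 31 males and 31 members in 30 of 31 males. The other 2 members were ENSGACG00000003836, higher in the diencephalon in 9 males, and ENSGACG00000015268, higher in the diencephalon in 8.

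ENSGACG00000003836 did not mark the telencephalon in every male but was high in a different region in different males. It exceeded 1000 CPM in the telencephalon of 15 males, and 13 of these had less than 100 CPM in the diencephalon. It was below 100 CPM in the telencephalon of 12 males. Of these, 7 had at least 500 CPM in the diencephalon, a lower limit than the 1000 CPM used for the telencephalon. Among the 7, courtship males 7 and 38 had 501 and 969 CPM there. The other 5 of the 12 males were low in both regions. Among them was predator male 42 (40.9 and 19.3 CPM), whose telencephalon library stood apart. A further 4 males lay between 100 and 1000 CPM in the telencephalon, and no male exceeded 1000 CPM in both regions.

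Where the cut between the regions fell in each male is not given in the labels used here, so a difference between males in the region and a difference in the cut cannot be told apart. Single males show the size of the contrast. Control male 26 had 8016 CPM in the telencephalon and 34.8 CPM in the diencephalon, and tradeoff male 28 had 4728 and 0.306 CPM. Predator male 23 had the opposite arrangement, with 10.8 CPM in the telencephalon and 4618 CPM in the diencephalon. Control male 40 had 7.06 and 2277 CPM, and tradeoff male 6 had 33.3 and 2245 CPM. Predator male 44, with 4.56 and 3.09 CPM, was low in both. Over all libraries the gene ran from 4.56 to 8016 CPM in the telencephalon and from 0.306 to 4618 CPM in the diencephalon.

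ENSGACG00000015268 followed the same males at a lower level. It had 58.8 CPM in the telencephalon and 1.76 CPM in the diencephalon of control male 26, and 1.21 and 36.5 CPM in predator male 23. Its telencephalon levels ran from 0.595 to 73.3 CPM and its diencephalon levels from 0.152 to 36.5 CPM. On the scale log2(CPM + 0.1), these members correlated with each other at r = 0.987 (rho = 0.956, n = 30) over telencephalon libraries and at r = 0.949 (rho = 0.934, n = 31) over diencephalon libraries. Without the 2 libraries farthest from the median of ENSGACG00000003836, r was 0.989 and 0.941. Both members were singled out after their values were seen, so these correlations are descriptions with no test.

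Between the regions of the same male, ENSGACG00000003836 had r = -0.60 (rho = -0.56, n = 30) and ENSGACG00000015268 r = -0.53 (rho = -0.43, n = 30). Without the 2 farthest telencephalon libraries the values were -0.67 and -0.73. Most genes went the other way. Over the 16911 genes whose mean reached 1 CPM, the median r between regions was 0.387, 9 genes had a value as low as ENSGACG00000003836 (itself included) and 25 as low as ENSGACG00000015268. The values of ENSGACG00000003836 lie mostly in a high and a low range, so that r mainly reflects which range each male fell in.

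**Figure D2:**
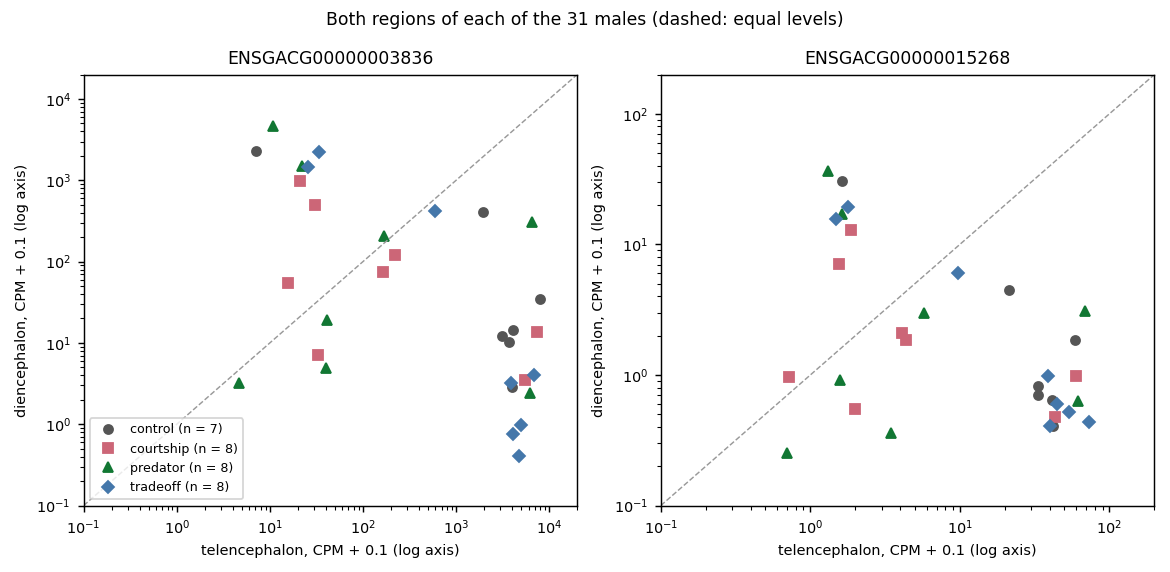
Telencephalon level (horizontal) against diencephalon level (vertical) of ENSGACG00000003836 and ENSGACG00000015268, in CPM + 0.1 on log axes, with 1 point for each of the 31 males and symbols for the treatments. For ENSGACG00000003836, 15 males lie to the right above 1000 CPM in the telencephalon, 7 males lie at the upper left with at least 500 CPM in the diencephalon, and no male is above 1000 CPM in both.

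The males with more than 1000 CPM of ENSGACG00000003836 in the telencephalon were found in every treatment, with 6 of 7 control, 2 of 8 courtship, 2 of 8 predator and 5 of 8 tradeoff males. The edgeR quasi-likelihood test gave -1.05 on the log2 scale (SE 1.45, adjusted p = 1.00) for courtship against control and -1.10 (SE 1.45, adjusted p = 1.00) for predator against control. These differences were smaller than their errors, and the spread within each treatment covered almost the whole range of the gene. In control males the telencephalon levels had a low of 7.06, a median of 3742 and a high of 8016 CPM, and in courtship males 15.6, 97.6 and 7426 CPM. Predator males had 4.56, 40.3 and 6486 CPM, and tradeoff males 25.8, 4012 and 6827 CPM.

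The genes most like ENSGACG00000003836 were taken by the highest r over the 30 telencephalon libraries. After ENSGACG00000015268 came ENSGACG00000015931 (r = 0.976), ENSGACG00000015460 (0.968), ENSGACG00000010758 (0.965) and ENSGACG00000017768 (0.953), none of them members. In all, 46 genes exceeded r = 0.8, of which 1 was a member. For 35 of the 46 the region medians lay within 2-fold of each other, but the share of all genes was not computed, so nothing is read from this. The 46 were chosen by telencephalon libraries alone, so they need not share the difference in place between males. ENSGACG00000015460, for example, had r = 0.37 with ENSGACG00000003836 over diencephalon libraries and r = -0.09 between regions. Between regions of a male, 40 of the 46 had a negative r, with a median of -0.28. The share of all genes with a negative r is not given, so nothing is read from this count either. Over diencephalon libraries only 4 genes exceeded 0.8, and 3 genes did so in both regions. Membership of ENSGACG00000003836 itself depended on the median, since with mean CPM in place of the median it was not in the list.

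The remaining 48 members differed less between males in the telencephalon than ENSGACG00000003836 and ENSGACG00000015268. The spread of a member was measured as the SD of log2(CPM + 0.1) around its treatment means. For the 48 it ran from 0.175 to 0.724 in 30 telencephalon libraries. The median over the 50 members was 0.294 in 30 telencephalon libraries, against 0.150 over all 13343 genes of at least 5 CPM. All 50 members lay above the median of all genes, and 16 lay above its 90th percentile of 0.333. The 85 telencephalon genes with a ratio between 4 and 8 had a median SD of 0.247, between the members and all genes.

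The largest SD in the telencephalon was 3.65 in ENSGACG00000003836, the second largest among the 13343 genes. ENSGACG00000015268 had 2.26, the 11th largest. After these came ENSGACG00000017894 at 0.724, ENSGACG00000009582 at 0.602 and ENSGACG00000016530 at 0.562. ENSGACG00000017894 ran from 1.30 to 17.4 CPM, with a median of 7.29 CPM. ENSGACG00000009582 ran from 11.2 to 61.7 CPM, with a median of 34.8 CPM. The steadiest members were ENSGACG00000006792, with an SD of 0.175 and a range of 47.7 to 79.2 CPM, ENSGACG00000004757 at 0.192, ENSGACG00000018854 at 0.219, ENSGACG00000011239 at 0.221 and ENSGACG00000004760 at 0.225. Even these lay above the median SD of all genes.

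In the diencephalon the median SD of the members was 0.459, against 0.149 for all genes of at least 5 CPM there. Only 17 members had a diencephalon median of at least 5 CPM, and the median SD of these was 0.304. The r between regions, over deviations from the treatment means in 30 males, had a median of 0.0932 over the members and was above 0 in 35. For the 17 members of at least 5 CPM in the diencephalon the median was 0.209, with 14 above 0, and for the 13049 genes with at least 5 CPM in both regions it was 0.427. The r between regions was below 0 in 15 members. It exceeded 0.5 in 4 members, named here after their values were seen, with 0.755 for ENSGACG00000016530, 0.721 for ENSGACG00000006863, 0.602 for ENSGACG00000019787 and 0.537 for ENSGACG00000000626. The diencephalon medians of ENSGACG00000016530 and ENSGACG00000000626 were only 0.916 and 0.567 CPM. The shares of all genes above 0, above 0.5 and below 0 are not given, so nothing is read from these counts.

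Genes higher in the diencephalon were followed in each dissected telencephalon. The marker level of a library averaged log2(CPM + 0.1) over the 118 Ensembl genes that were at least 8 times higher in the diencephalon, with a median of at least 5 CPM there. It was 4.12 to 4.85 in the diencephalon libraries. In telencephalon libraries it was at most 0.60 in 26 males, 0.84 in courtship male 41, 1.71 in tradeoff male 13, 1.89 in control male 12, 2.99 in control male 30 and 3.15 in predator male 42. The markers hold no member but were chosen from the same contrast of regions, and how much diencephalon tissue a given level stands for was not tested.

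The telencephalon library of male 42 lacked what defines the members. Of the 50 members, 21 lay below the lowest diencephalon library, 23 within the range of the diencephalon libraries and 6 above it. It was the lowest of all telencephalon libraries for 47 members, and 29 members were lower there than in the diencephalon of the same male. ENSGACG00000016538 had 34.4 CPM, ENSGACG00000005648 0.110 CPM and ENSGACG00000006792 0.0549 CPM, each below every diencephalon library. Its mean member level was 0.64 on the log2 scale, against 5.004 to 5.85 in the other telencephalon libraries and 1.27 to 2.31 in the diencephalon. Nor was it like a diencephalon library, since 63 of the 118 diencephalon markers lay below the lowest diencephalon library and 21 above the highest. With this library counted, 6 of 50 members had all 31 telencephalon libraries above all diencephalon libraries, against 0.386% of the Ensembl genes. The rule used the same contrast, so nothing is read from the difference between these shares. What tissue the library held was not tested.

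The library of control male 30 kept the members but at lower levels. Its ratio to the telencephalon median was 0.583 at the middle of the members, and it was the lowest of 30 libraries for 29 of them. ENSGACG00000016538 had 692 CPM there, ENSGACG00000005648 101 CPM and ENSGACG00000016530 2.21 CPM, which are ratios of 0.476, 0.459 and 0.244. The members were not lowered alike. The ratio was at least 0.9 for 9 members, among them ENSGACG00000009609 at 1.10, ENSGACG00000001392 at 1.05 and ENSGACG00000008062 at 1.01. In control male 12 the middle ratio was 0.892, and 23 members had at least 0.9. The diencephalon markers had a median ratio of 6.74 in male 30 and 3.501 in male 12. These ratios used medians over 30 telencephalon libraries, with medians under 0.1 CPM raised to 0.1. The ratios of the members used medians over 31.

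**Figure D3:**
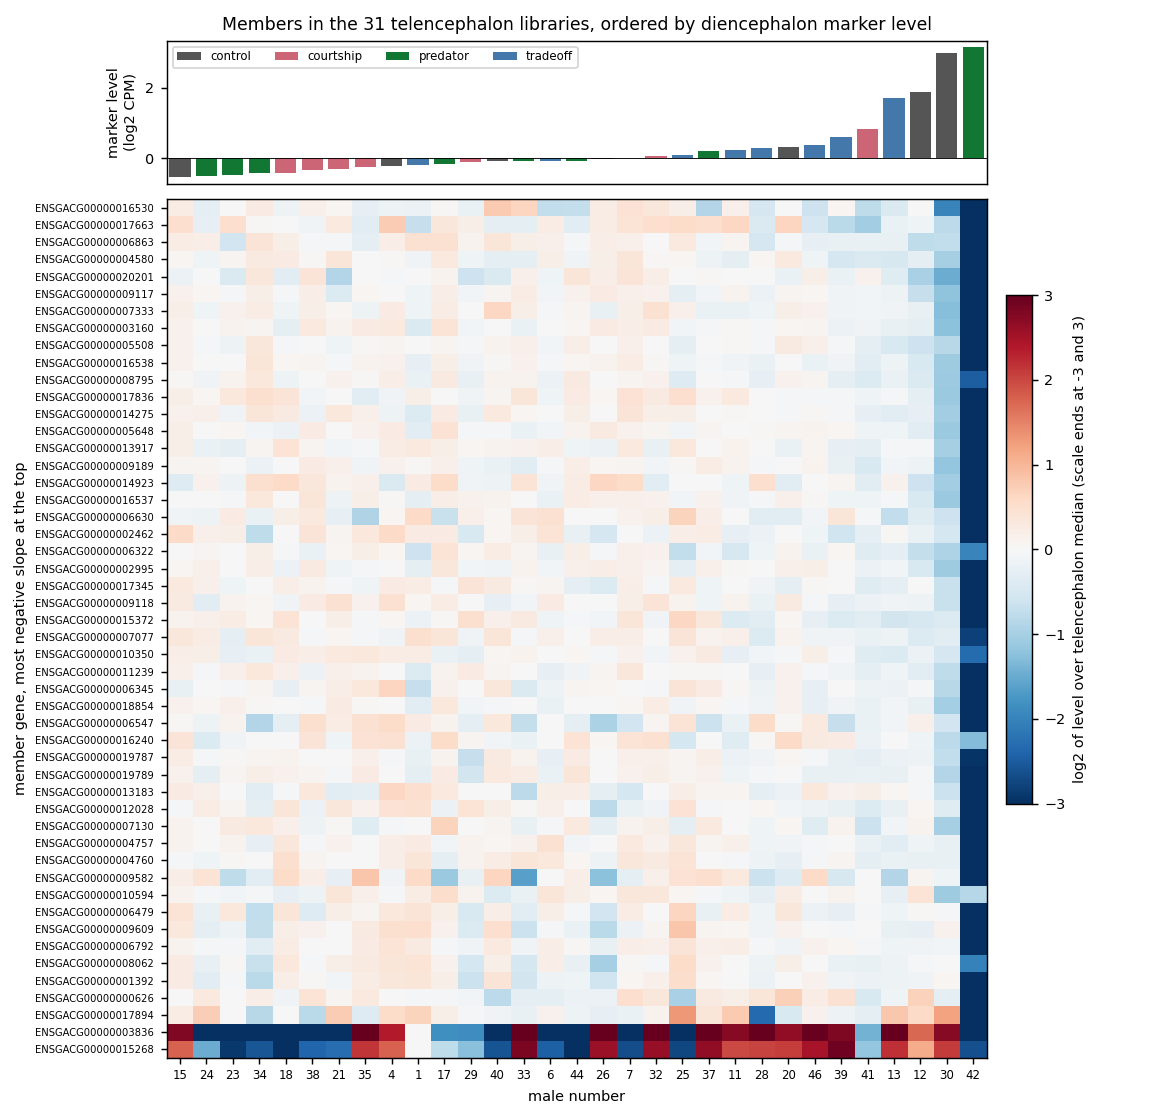
Lower panel, log2 of the level of each member over its telencephalon median in the 31 telencephalon libraries, with the colour scale ending at 3 in both directions. Upper panel, the diencephalon marker level of the same libraries, coloured by treatment, by which the libraries are ordered. The column of male 42 is dark blue for most members and that of male 30 pale blue for most, and the bottom 2 rows, ENSGACG00000003836 and ENSGACG00000015268, switch between red and blue from male to male.

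The slope of each gene on the marker level was fitted over the 30 telencephalon libraries, with the treatments as further terms. Levels of 28 of the 50 members fell with the marker level at an adjusted p under 0.05 and none rose (edgeR quasi-likelihood test). Over all 18687 genes, 10.4% were called, of which 5.14% of the genes fell and 5.29% rose. The median slope of the members was -0.22 on the log2 scale per unit of marker level, against 0.00 over all genes. Of the 85 telencephalon genes with a ratio of 4 to 8, 46 fell, with a median slope of -0.19. Members and markers are opposite ends of the same contrast between regions, taken from the same libraries. The direction of the slopes was thus partly set by the choice of genes. Neither the count nor the adjusted p of a single member is independent evidence.

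The called slopes ran from -0.42 to -0.16. The steepest were those of ENSGACG00000016530 (-0.42, SE 0.131, edgeR adjusted p = 0.0388), ENSGACG00000006863 (-0.32, SE 0.0667, adjusted p = 0.00234), ENSGACG00000004580 (-0.31, SE 0.0611, adjusted p = 0.00131) and ENSGACG00000020201 (-0.30, SE 0.0987, adjusted p = 0.04997, just under the threshold). The slope of ENSGACG00000020201 turned to 0.024 without males 42, 30 and 12. ENSGACG00000017663 had -0.33 (SE 0.121, adjusted p = 0.0811) and did not pass. ENSGACG00000016538 had a slope of -0.27 (SE 0.0421, adjusted p = 0.000135), the smallest adjusted p of the members. The adjusted p values here are from the fit with male 30, on whose library the count of calls rested, as given below. They carry the limit given above for the choice of genes and are no independent evidence for a member. At the other end were ENSGACG00000001392 (-0.08), ENSGACG00000000626 (0.03), ENSGACG00000017894 (0.21), ENSGACG00000003836 (0.45, SE 0.941) and ENSGACG00000015268 (0.48, SE 0.609), none of which passed.

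The count of called slopes rested on the library of male 30. Without males 42 and 30, a fit added once the values were known, 2 members fell, against 0.192% of all genes. Without males 42, 30 and 12 no member passed by edgeR, against 0.0106% of all genes called lower. At an unadjusted p under 0.05 there were 9 of 50 members and 9.32% of all genes. The median slope was then -0.12. Without males 42 and 12, and without males 42 and 13, 28 and 29 members fell. With all 31 libraries 43 fell, against 21.5% of all genes.

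**Figure D4:**
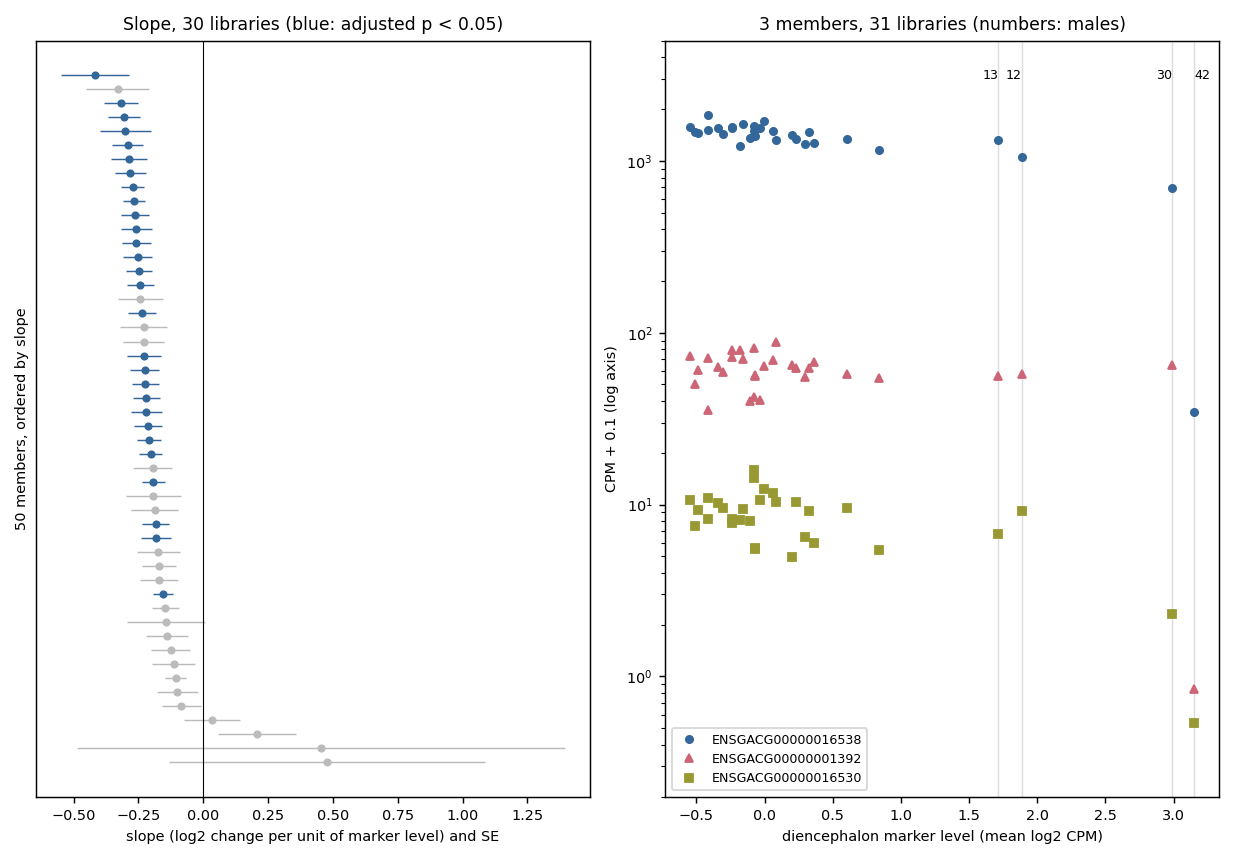
Left, slope of each of the 50 members on the diencephalon marker level over 30 telencephalon libraries, as log2 change per unit with SE, blue where the adjusted p was under 0.05. Right, level of 3 members (CPM + 0.1, log axis) against the marker level in 31 libraries, with vertical lines for males 13, 12, 30 and 42. Of the 50 slopes 28 are blue and all of these are negative, and on the right ENSGACG00000016538 and ENSGACG00000016530 are lower in male 30 while ENSGACG00000001392 is not.

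The members moved together in the telencephalon, less so without males 42, 30 and 12. Over 30 libraries, with treatment means removed, the median r over the 1225 pairs of members was 0.331, and 30.8% of pairs exceeded 0.5. The median over pairs of all genes of at least 5 CPM was 0.0124. No value over all genes is given for the share of pairs or for the settings that follow. The members share libraries, depth and the tissue pieces they were read from. With the marker level removed the median was 0.131 (11.7% of pairs above 0.5), and without males 42, 30 and 12 it was 0.154 (8.73%). With male 42 included it was 0.907, so that a single library sets the value over all 31. In the diencephalon the median was 0.0835, and 3.76% of pairs exceeded 0.5. Only 17 members had a diencephalon median of at least 5 CPM, so the regions are not compared on these values.

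The treatments were compared with 9 contrasts in each region, which were the 6 pairs of treatments, the mean effects of the female and of the predator cue, and the departure of the tradeoff from the sum of both. No member passed the threshold in the telencephalon, where all 50 were tested, or in the diencephalon, where 48 passed the filter on low counts (edgeR quasi-likelihood test). The share of all genes called was 0% in each of these contrasts. At an unadjusted p under 0.05 there were 0 members in every telencephalon contrast, against 2.24% to 5.35% of all genes. In the diencephalon contrasts there were 0 to 7, against 3.02% to 6.54% of all genes. The 7 of 48 were in tradeoff against predator, where 4.69% of all genes were under that p. Without male 33, a fit added once the values were known, they were 5 of 48, against 5.76%. The median change of the members was then 0.03 in place of -0.05. DESeq2 called no member in any contrast either. The smallest adjusted p of a member was 0.921 in the telencephalon and 0.642 in the diencephalon. The median SE of a log2 fold change was 0.322 and 0.225. Without male 42 the telencephalon values changed. The smallest adjusted p of a member was then 0.202, in the departure from additivity, and 0.275 in tradeoff against predator, and the median SE of the 6 pairwise contrasts was 0.139 to 0.148. In these fits 10 and 11 members had an unadjusted p under 0.05, against 15.3% and 12.1% of all genes, and none passed.

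In the telencephalon the level of ENSGACG00000016538 was 1345 ± 342 CPM in control males (SD, n = 7), 1468 ± 163 in courtship males (n = 8), 1372 ± 558 in predator males (n = 8) and 1309 ± 56.2 in tradeoff males (n = 8). The large SD of the predator males came with male 42, without which they had 1563 ± 152 CPM (n = 7). ENSGACG00000005648 had 212 ± 58.3 CPM in control, 225 ± 22.5 in courtship, 201 ± 86.7 in predator and 213 ± 19.0 in tradeoff males, with 230 ± 32.4 in predator males without male 42. The levels of ENSGACG00000005648 overlapped between all treatments. Those of ENSGACG00000016538 did so with male 42 counted. Without it, predator males had 1419 to 1857 CPM and tradeoff males 1218 to 1393 CPM, and these 2 groups did not overlap.

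Members' estimates leaned with the libraries that stood apart. For predator against control, the median log2 fold change of the members was -0.07 with all libraries, with 18 of 50 estimated higher. Without male 42 it was 0.10, with 33 estimated higher, and 6 of 50 members had an unadjusted p under 0.05, against 8.44% of all genes. Without males 42, 30 and 12 it was -0.04, with 22 estimated higher. The mean marker level of the telencephalon was 0.61 ± 1.31 in control males (SD, n = 7) and -0.06 ± 0.402 in courtship males (n = 8). It was -0.22 ± 0.265 in predator males without male 42 (n = 7) and 0.38 ± 0.594 in tradeoff males (n = 8). For courtship against control the members' median was 0.10 with 37 of 50 estimated higher, and -0.06 with 13 of 50 without males 42, 30 and 12. With the marker level as a covariate on all libraries, the median was -0.22 for courtship against control, with 3 of 50 estimated higher, and -0.45 for predator against control, with 0 of 50. In the latter 7 members had an unadjusted p under 0.05, against 6.63% of all genes. Without male 42 and with the covariate the medians were -0.02 and -0.04, so that the lean of the members in these contrasts turned with the libraries and terms in the fit.

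For tradeoff against predator, 4 members passed in a fit without the libraries of males 42, 30 and 12, which was added once the values were known. They were ENSGACG00000006322 at -0.46 (SE 0.0996, edgeR adjusted p = 0.0200), ENSGACG00000008795 at -0.35 (SE 0.0798, adjusted p = 0.0254), ENSGACG00000016538 at -0.28 (SE 0.0616, adjusted p = 0.0206) and ENSGACG00000018854 at -0.27 (SE 0.0574, adjusted p = 0.0190). In the same fit 1.02% of all genes were called lower, and 10 of the 85 telencephalon genes with a ratio of 4 to 8. The calls were thus not particular to the members. The same 4 members passed without male 13 as well, against 0.676% of all genes and 6 of the 85. With the marker level as a covariate none of the 4 passed, with adjusted p from 0.0522 to 0.116, but the changes were of similar size, at -0.49, -0.32, -0.24 and -0.27 in the order above. Males 30 and 12 were control males, so leaving them out removed no library of the 2 treatments compared. With only male 42 left out, the changes were -0.46, -0.35, -0.28 and -0.27 in the same order. Their SE was then larger, at 0.105 to 0.140, and none passed (edgeR adjusted p from 0.275 to 0.340). The calls thus came with a smaller SE and not with a larger change. With all 31 libraries the changes ran from -0.10 to -0.32 and the smallest adjusted p was 0.959. ENSGACG00000006322 had 17.4 to 30.4 CPM (median 24.2) in tradeoff males and 27.5 to 38.5 CPM (median 30.9) in predator males without male 42, so that the groups overlapped. ENSGACG00000008795 overlapped as well, with 17.1 to 23.9 CPM (median 19.6) against 21.1 to 28.3 CPM (median 24.4). ENSGACG00000018854 had 71.4 to 85.8 CPM (median 82.4) against 88.7 to 111 CPM (median 92.1) and, like ENSGACG00000016538, did not overlap. These were the only 2 of 50 members with all 8 tradeoff males below all 7 predator males, against 0.378% of 12958 Ensembl genes.

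A few of the members with a small p are given although they did not pass. Other diencephalon contrasts, not given by member here, held small unadjusted p values too (edgeR quasi-likelihood test). The smallest of a member was 0.0026 for predator against courtship, 0.0040 for tradeoff against predator and 0.0047 for tradeoff against control. In the diencephalon ENSGACG00000009582 had a mean effect of the female of -0.44 (SE 0.114, edgeR adjusted p = 0.642), from 2.99 ± 0.686 CPM in control (SD, n = 7) and 2.94 ± 0.7998 in predator males (n = 8) to 2.31 ± 0.385 in courtship (n = 8) and 2.10 ± 0.333 in tradeoff males (n = 8). ENSGACG00000009609 was estimated higher by 1.09 on the log2 scale (SE 0.359, adjusted p = 1.00) in predator than in control males, with 1.93 CPM in the median and 10.3 CPM in the highest predator library, which was that of male 33. Without male 33 the change was 0.64. ENSGACG00000008062 had 0.51 (SE 0.173, adjusted p = 1.00) in the same contrast, with 2.35 to 6.69 CPM in predator and 2.66 to 3.24 CPM in control males. In the telencephalon, ENSGACG00000008062 had 0.38 (SE 0.198, edgeR adjusted p = 0.931) for tradeoff against predator, with 37.7 to 63.4 CPM in tradeoff and 10.53 to 47.7 CPM in predator males. The low of 10.53 CPM was the library of male 42, which this fit included.

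The difference between regions in the treatment effect was tested for the 3 treatments against control in a fit of all 62 libraries. The fit had no term for the male, so the regions of a male counted as independent although their deviations correlated. No member passed (edgeR quasi-likelihood test), again with 0% of all genes called, and 0, 3 and 0 members had an unadjusted p under 0.05 for courtship, predator and tradeoff, against 2.04%, 1.89% and 1.24% of all genes. DESeq2 called no member. Values for predator against control moved when the male was a block and male 42 was left out. Then 11 of 50 members had an unadjusted p under 0.05, against 7.70% of all genes, and none passed. The median difference of the members was 0.14 in that fit and -0.06 in the main fit. For predator against control the smallest p was that of ENSGACG00000008062, whose effect was 0.82 lower in the telencephalon on the log2 scale (estimate -0.82, SE 0.271, edgeR adjusted p = 1.00). ENSGACG00000009609 had a difference of -1.61 (SE 0.533, adjusted p = 1.00). Both values are from the main fit, which included male 42. With male 42 left out they were -0.68 for ENSGACG00000008062 and -1.41 for ENSGACG00000009609, and neither passed. In the fit of the diencephalon alone, the change of ENSGACG00000009609 was 1.09 with male 33 and 0.64 without it. The difference between regions was not tested without male 33.

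**Figure D5:**
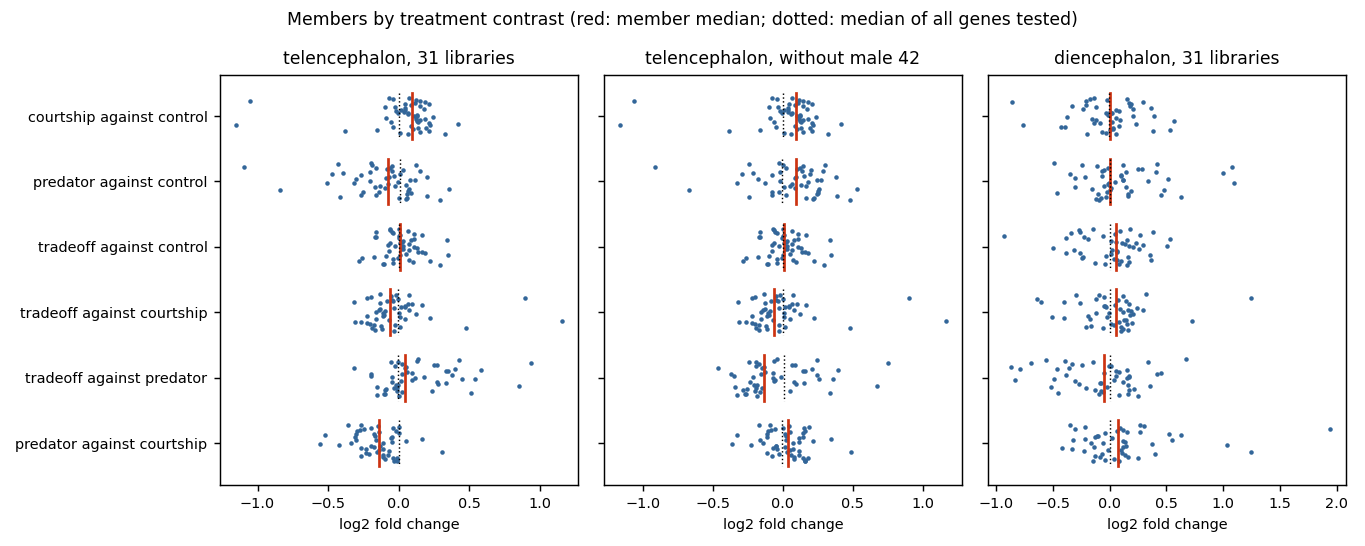
Log2 fold change of the members in the 6 pairwise treatment contrasts, 1 point for each member, in the telencephalon with 31 libraries, the telencephalon without male 42 and the diencephalon. Red bars are the medians of the members and dotted lines the medians of all genes tested. For predator against control the red bar lies at -0.07 in the left panel and at 0.10 in the middle panel.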

How the data were processed

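The authors deposited unnormalized read counts for every gene model, in a separate file for each library, with no pooling. Per the submitters' processing notes, STAR and HTSeq were used. Not given in the sources used here are versions, genome build, annotation and strand setting, so overlapping and antisense genes may not be separated. Per the tally lines of the deposited files, 44.5% of reads were in gene models and 10.3% aligned to several places and were not counted, which makes members with near-identical copies uncertain.

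CPM was computed from the counts in gene models. None of 22295 identifiers matched the RefSeq gene table (fGasAcu3.hap1.1, 52177 entries; 0 matched), so cell type lists by symbol were not used and no sequence is given. The members, the gene lists and the rule for named genes were chosen with earlier results of these data known. The rule named members highest in level or in ratio, nearest the limit of 8, with the smallest p in each contrast, and with the extreme spreads and slopes.

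Counts were tested with edgeR 4.0.16 (glmQLFTest, TMM, filterByExpr with minimum count 10 and minimum total 15) in R 4.3.3, each region alone, with Benjamini-Hochberg adjustment over all genes and a threshold of 0.05. DESeq2 1.42.0, other size factors, no filter, left-out libraries and covariates were alternatives. The fits were also run on simulated counts with known changes. The simulated libraries were independent, with no link between the regions of a male and none standing apart, so nothing is read from them here. No pair of libraries in a group agreed within sampling noise. The number in the labels marks the male. Deviations of same-numbered libraries correlated between regions at 0.151 to 0.642, against a mean of -0.0140 between different males.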

Additional observations from a re-analysis of the deposited data

Results flagged for a closer look

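Within the 8 groups of libraries, 88 sets of values over 11 measures were screened for a library far from the others, by the gap to the nearest library over the range of the group. The limits used would mark about 1 in 20 sets of independent, normally distributed values. Most measures here are CPM of single members, several chosen with their values known, and the sets share libraries. The number marked is therefore not compared with that share. The screen marked 17 values, and 6 of these were the telencephalon library of predator male 42.

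In the telencephalon of predator males, male 42 had a diencephalon marker level of 3.15, where the nearest male had 0.20. Its mean member level was 0.64, where the nearest had 5.41. It had 34.4 CPM of ENSGACG00000016538 (nearest 1419), 0.110 CPM of ENSGACG00000005648 (nearest 192), 2.30 CPM of ENSGACG00000009609 (nearest 89.6) and 2.41 CPM of ENSGACG00000014923 (nearest 38.2). The marker level was also apart in the telencephalon of courtship male 41, at 0.84 (nearest 0.06), and of tradeoff male 13, at 1.71 (nearest 0.60).

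Both members that differed in place between males were marked in the diencephalon. Control male 40 had 2277 CPM of ENSGACG00000003836 (nearest 403) and 30.52 CPM of ENSGACG00000015268 (nearest 4.36). Predator male 23 had 4618 CPM (nearest 1487) and 36.5 CPM (nearest 17.1).

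The other marked values were single libraries. In the telencephalon, control male 26 had 21.8 CPM of ENSGACG00000008062 (nearest 42.6) and 64.8 CPM of ENSGACG00000014923 (nearest 38.3). In the diencephalon, tradeoff male 25 had 113 CPM of ENSGACG00000016538 (nearest 101), control male 15 had 8.44 CPM of ENSGACG00000005648 (nearest 3.39) and courtship male 29 had 12.0 CPM of ENSGACG00000014923 (nearest 5.88).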

How the results depend on the processing

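The number of members was 50 by the rule, 41 to 59 with mean CPM, TMM scaling, a minimum of 1 CPM or male 42 left out, and 29 with a constant of 1 CPM. Member counts per treatment contrast were 0 under each alternative in both regions, except tradeoff against predator in the telencephalon, with 4 members without males 42, 30 and 12 and 4 without male 13 as well. For the difference between regions, the replicate block, which sets the regions of a male against each other, called 0 members, as did the fit without it, and changed no call. The slope count of 28 was 43 with all 31 libraries, 0 without males 42, 30 and 12 and 2 without males 42 and 30. It was 25 to 34 under the other alternatives. The median spread of 0.294 in the telencephalon was 1.03 with male 42, and 0.231 to 0.302 under the other alternatives. In the diencephalon it was 0.459, and 0.282 on log2(CPM + 1). The median r between members was 0.331, 0.907 with male 42 and 0.154 without males 42, 30 and 12. The cause of these moves was not tested beyond the libraries named.

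Of 170 values of single members under alternatives, 151 kept their direction and their side of the threshold, 11 no longer passed, 2 newly passed and 6 changed sign. With the marker level as a covariate, ENSGACG00000014923 had -0.00051 for predator against control. The slope of ENSGACG00000020201 was 0.024 without males 42, 30 and 12. That of ENSGACG00000000626 was -0.27 with all 31 libraries and -0.059 without males 42 and 12. That of ENSGACG00000017894 was -0.054 with all 31 and -0.078 without males 42, 30 and 12. None of these 6 passed the threshold. Leaving out each male in turn was not run, since the groups hold 7 or 8 males. Depth limits the members with a diencephalon level under 1 CPM, and confidence in all contrasts is limited by the spread between males.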
